A study of Mus musculus with 12 samples.

Results

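The nuclear-encoded subunits of the mitochondrial respiratory chain and of ATP synthase were followed in mouse B cells stimulated with or without interleukin-4 (IL-4). Members were all gene names on the array that begin with Nduf followed by a, b, c, s or v and a digit, that are Sdha, Sdhb, Sdhc or Sdhd, that begin with Uqcr, that begin with Cox, a digit of 4 to 8 and a letter, or that begin with Atp5. The rule found 85 of the 34650 gene names, measured by 124 probes. By name, 37 fell to complex I, 4 to complex II, 8 to complex III, 18 to complex IV and 18 to complex V, which is ATP synthase. Some names the rule takes are not subunits of the complex whose name they bear. Ndufa4 is now placed in complex IV, Cox7a2l is a factor that joins complexes into supercomplexes, Atp5c1-ps is a pseudogene, and Atp5s and Atp5sl are not subunits of ATP synthase.

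The respiratory chain sits in the inner mitochondrial membrane. Complexes I and II feed electrons from NADH and succinate into the ubiquinone pool, complex III passes them to cytochrome c, complex IV hands them to oxygen, and ATP synthase uses the proton gradient that the pumping complexes build. Most subunits are encoded in the nucleus and a few in mitochondrial DNA, and activated B cells enlarge their mitochondrial mass as they grow and divide. Several complex IV subunits exist as a widely expressed form and as a form typical of heart and skeletal muscle, testis or lung.

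Splenic B cells came from female BALB/c mice aged 9 weeks, either STAT6 ko (STAT6 knockout) or wild type, and had been isolated by negative selection. STAT6 is the transcription factor that the IL-4 receptor activates. All cells were stimulated for 4 days with lipopolysaccharide (LPS, 2 µg/ml) plus an anti-CD40 antibody (10 µg/ml), with fresh medium on day 3, so that the control cells were activated B cells too. The 4 groups of 3 samples were STAT6 knockout with IL-4 (25 ng/ml), STAT6 knockout control, wild type with IL-4 and wild-type control. The labels describe triplicate samples without saying whether they came from separate mice, so the p-values measure the spread between these samples, which may be technical. In a bulk sample, fewer cells of a type and less RNA per cell cannot be told apart.

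Each sample was hybridised to a 1-colour Agilent array. Values are log2 signals relative to the 75th percentile of the array, and changes are differences of these values tested with limma over 16497 genes with Benjamini-Hochberg adjustment. "Rose", "fell", "higher" and "lower" denote an adjusted p under 0.05, at any size. Between 40.7% and 44.0% of spots per array were well above background, arrays within groups had r = 0.994 to 0.998 over genes, which are not independent replicates, and 3 arrays per group limit the precision. The Stat6 probe read 1.30, 1.38 and 1.59 in knockout IL-4 samples and 1.13, 1.29 and 1.30 in knockout controls, against 3.42, 3.38 and 3.29 in wild-type IL-4 samples and 3.11, 3.23 and 3.20 in wild-type controls. It was 3.84-fold lower in knockout controls than in wild-type controls (adjusted p = 1.03e-06), but remained well above background on all 12 arrays. The labels do not say which part of Stat6 is deleted. The knockout arrays did not all behave alike: knockout IL-4 array 3 and the 3 knockout controls had high signals of genes of hypoxia and glycolysis, as given beside the results they touch. By scan date and grid name in the scanner headers the arrays fell into 2 sets, called slides here. Slide 2 held the IL-4 arrays of knockout cells together with knockout control 3, and slide 1 held the remaining arrays. IL-4 and slide thus cannot be told apart between the knockout IL-4 arrays and knockout controls 1 and 2. In a fit that adds slide as a block, the knockout response rests on knockout control 3 as its only control. The same holds there for its difference from the wild-type response.

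Of the 85 members, 80 were tested, and all 80 were well above background on all 12 arrays. The other 5 were tissue-restricted forms for which no group had a probe well above background in all 3 of its arrays. Cox8b, Cox8c and Cox7b2 were well above background on 0 of 12 arrays, Ndufa4l2 on 3 and Cox4i2 on 4. In total 60 members were called in at least 1 of the 5 comparisons. The share of all genes so called was not counted, but in the wild-type response alone 26.4% rose and 30.8% fell. Only Cox6a2 and Cox7a1 passed with a change of at least 2-fold. Of all genes tested, 0.788% rose and 2.73% fell by that much with IL-4 in knockout cells, and 5.72% rose and 6.95% fell in wild-type cells. Between controls 0.837% were higher and 0.339% lower in knockout cells by that much, and between IL-4 groups 4.63% were higher and 5.05% lower. For the difference of the responses 5.03% were higher and 5.61% lower.

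In STAT6 knockout cells IL-4 went with slightly higher signals of many subunits. Of the 80 tested members 31 rose and 3 fell, where 27.5% of all genes tested rose and 14.7% fell. The median change of the members was 0.13 on the log2 scale, beside 0.05 for all genes tested. The members that fell were Cox7a1, Ndufv3 and Uqcrh. The split depends on how the arrays are scaled. Quantile normalization gave 14 higher and 10 lower, where 21.8% of all genes rose and 17.5% fell. The authors' gene-level values gave 15 and 9 (all genes 21.5% and 17.4%), and scaling to the array median 35 and 2 (35.8% and 7.76%). The median of the members was then 0.02, 0.02 and 0.28, beside 0.02, 0.01 and 0.20 for all genes. With quantile normalization and the authors' values the share of members that rose was thus not above that of all genes. Leaving out knockout IL-4 replicate 1 left 21 higher and 1 lower (all genes 21.8% and 12.2%). Leaving out knockout IL-4 replicate 3 gave 40 higher and 3 lower (all genes 29.7% and 15.5%).

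In wild-type cells the balance lay the other way. There 9 members rose and 27 fell with IL-4, where 26.4% of all genes tested rose and 30.8% fell, and the median change of the members was -0.08, beside -0.04 for all genes. The share of members that fell was 33.8%, near that of all genes, while the share that rose was 11.2%. More members fell than rose under quantile normalization (29 lower, 10 higher) and under median scaling (12 lower, 5 higher) as well. Of all genes tested 31.8% fell and 26.3% rose under quantile normalization, and 22.9% fell and 23.3% rose under median scaling.

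The members were then sorted by both responses. All 9 members that rose with IL-4 in wild-type cells also rose in knockout cells: Ndufb9, Ndufb11, Ndufc2, Ndufs5, Uqcrq, Cox6a1, Cox6a2, Atp5g1 and Atp5s. Under quantile normalization the knockout changes of Ndufb9, Ndufb11, Ndufc2 and Ndufs5 were 0.06, 0.07, 0.06 and 0.08 and did not pass (adjusted p = 0.297, 0.168, 0.321 and 0.331), nor did the wild-type change of Ndufb9 (0.10, adjusted p = 0.0532). Under median scaling the wild-type changes of Ndufb9, Ndufc2, Ndufs5 and Cox6a1 did not pass (adjusted p = 0.253, 0.0951, 0.11 and 0.0832). Of the 27 that fell in wild-type cells, 4 rose in knockout cells (Ndufb5, Cox8a, Atp5c1 and Atp5g2). Another 1 fell there too (Uqcrh), and 22 were not called there. Under quantile normalization each of the 4 with opposite directions lost 1 call. The knockout changes of Ndufb5 and Atp5c1 were then 0.03 and 0.11 (adjusted p = 0.652 and 0.0778). The wild-type changes of Cox8a and Atp5g2 were -0.04 and -0.07 (adjusted p = 0.503 and 0.178). A further 18 rose in knockout cells and were not called in wild type. All genes tested were not sorted in this way, so these counts have no share of all genes beside them.

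The difference of the responses was tested itself, as the IL-4 response in knockout cells minus that in wild-type cells. It was positive for 71 of the 80 members, beside 9715 of all 16497 genes tested, and 61 members lay above the median of all genes. In all, 30 members passed as higher and 1 as lower, where 28.3% of all genes tested were higher and 16.4% lower. The median difference was 0.20, beside 0.10 for all genes. Of the 30, 23 had fallen in wild-type cells and 10 had risen in knockout cells, 4 of them both; Ndufa5 passed in neither response. Quantile normalization gave 20 higher and 3 lower, and median scaling 23 and 1. Of all genes tested 25.8% were higher and 18.6% lower under quantile normalization, and 28.6% and 10.3% under median scaling. Under quantile normalization the median of the members was 0.11, beside 0.07 for all genes. Median scaling also moved the median of all genes in this comparison to 0.23, that of the knockout response to 0.20 and that of knockout against wild-type controls to -0.22, so the members' medians of 0.33, 0.28 and -0.30 under that scaling are to be read against those shifts.

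**Figure D1:**
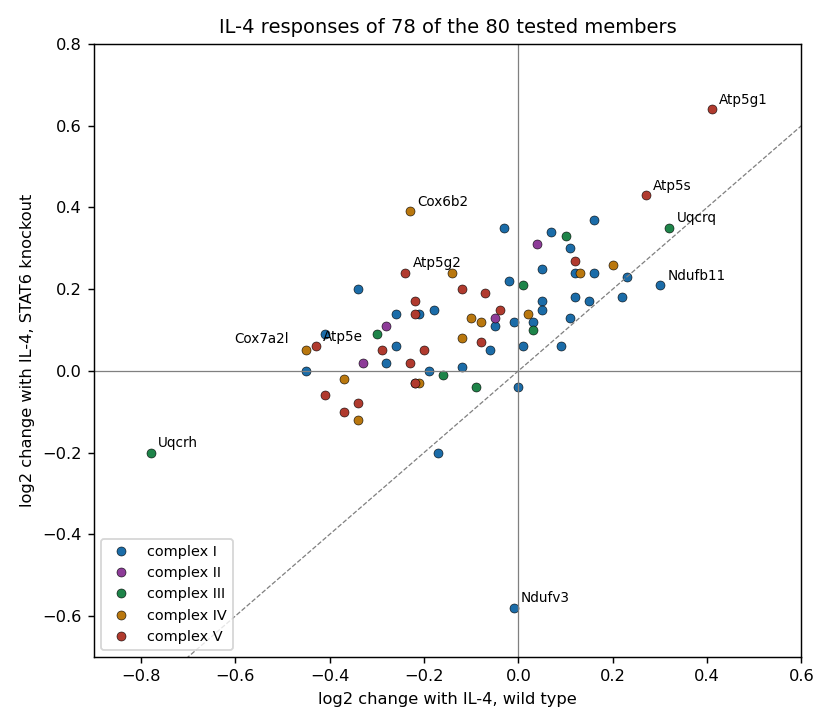
Log2 change with IL-4 in STAT6 knockout cells (vertical axis) against that in wild-type cells (horizontal axis) for 78 of the 80 tested members, coloured by complex; Cox6a2 and Cox7a1 lie outside the axes. The dashed line marks equal responses, and most members lie above it. With quantile normalization 14 members rose and 10 fell in knockout cells (21.8% and 17.5% of all genes tested). With 75th percentile scaling 31 rose and 3 fell (27.5% and 14.7% of all genes tested).

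Members of every complex were among the 30. The knockout minus wild-type response was higher for 10 of 36 members of complex I, 2 of 4 of complex II and 3 of 8 of complex III. It was higher for 6 of 14 of complex IV and 9 of 18 of complex V. From complex I to V these were 27.8%, 50%, 37.5%, 42.9% and 50%, beside 28.3% of all genes tested. The share in complex I was thus near that of all genes. The medians were 0.13, 0.31, 0.18, 0.20 and 0.26 in the same order. In complex V the difference was positive for all 18 members, with a range that began at 0.15, above the 0.10 median of all genes. In complex I it was positive for 29 and negative for 7. No test between complexes was made.

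**Figure D2:**
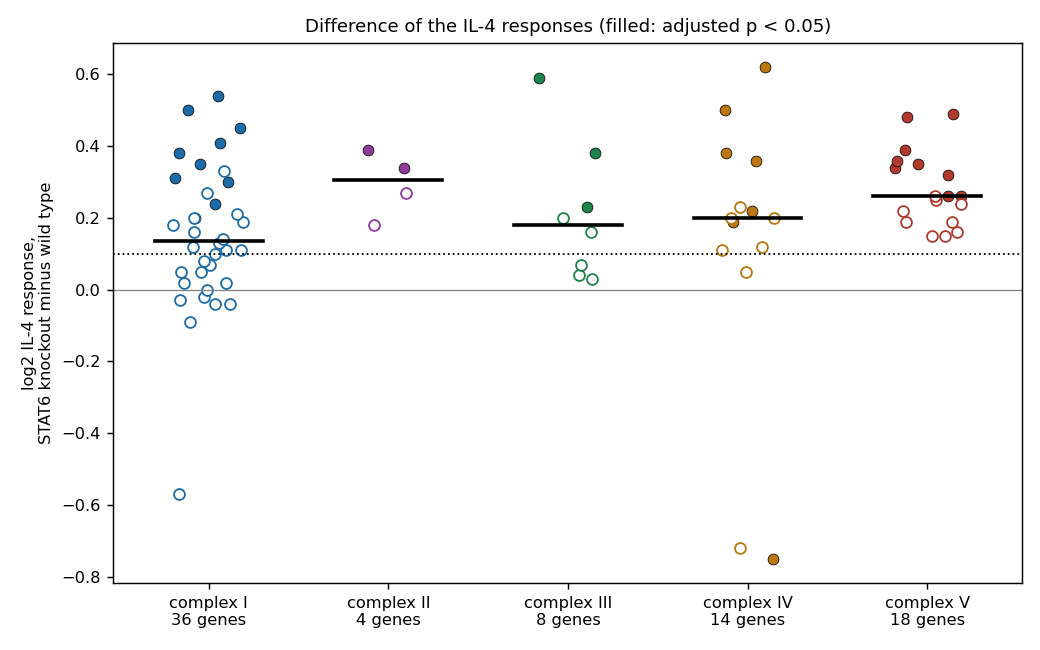
Log2 IL-4 response in STAT6 knockout cells minus that in wild-type cells for each tested member (points), by complex, with the median of the complex (bar) and of all 16497 genes tested (dotted line at 0.10). Filled points passed an adjusted p under 0.05; all 18 points of complex V lie above the dotted line, and Cox6a2 in complex IV is the filled point at -0.75.

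Upstream sequences are shown for 4 members whose responses stand for the patterns described here. Uqcrh had the largest fall past the test in wild-type cells. Atp5g2 fell in wild-type and rose in knockout cells, though its wild-type fall was not called under quantile normalization. Cox6a1 rose in both, and Cox7a1 differed between the knockout arrays. Each sequence is the 250 bases upstream of the RefSeq gene start in GRCm38.p6, written 5′ to 3′ on the gene's strand, with motif matches in capitals. They lie at chr4:116075071-116075320 (minus strand), chr15:102671048-102671297 (minus strand), chr5:115348959-115349208 (minus strand) and chr7:30183921-30184170 (plus strand), named in the order below.
Uqcrh: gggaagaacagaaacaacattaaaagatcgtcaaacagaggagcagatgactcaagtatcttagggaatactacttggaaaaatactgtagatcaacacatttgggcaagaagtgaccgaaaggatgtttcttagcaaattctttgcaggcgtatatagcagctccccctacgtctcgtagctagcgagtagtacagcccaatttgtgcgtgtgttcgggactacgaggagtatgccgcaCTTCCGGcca
Atp5g2: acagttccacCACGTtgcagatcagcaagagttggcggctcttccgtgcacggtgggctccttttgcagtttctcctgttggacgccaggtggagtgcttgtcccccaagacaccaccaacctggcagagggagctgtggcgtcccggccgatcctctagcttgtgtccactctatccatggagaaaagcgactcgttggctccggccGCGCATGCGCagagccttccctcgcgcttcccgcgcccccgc
Cox6a1: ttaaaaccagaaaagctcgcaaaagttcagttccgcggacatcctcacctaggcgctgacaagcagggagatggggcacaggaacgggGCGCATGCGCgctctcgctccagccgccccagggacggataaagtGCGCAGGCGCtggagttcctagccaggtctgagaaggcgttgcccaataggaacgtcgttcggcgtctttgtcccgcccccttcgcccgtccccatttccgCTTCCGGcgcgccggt
Cox7a1: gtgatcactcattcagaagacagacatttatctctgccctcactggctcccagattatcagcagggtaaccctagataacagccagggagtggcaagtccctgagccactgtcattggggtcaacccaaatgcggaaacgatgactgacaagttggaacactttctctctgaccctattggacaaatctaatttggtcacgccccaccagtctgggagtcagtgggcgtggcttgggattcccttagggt
The motifs searched, on both strands, were the NRF-1 palindrome, a core form of it with 1 free base, which every NRF-1 match also meets, GABP and ETS (CCGGAAG), hypoxia response (ACGTG) and the STAT6 palindrome with its 4-base spacer. NRF-1 and GABP are transcription factors known to bind promoters of respiratory chain genes.

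A RefSeq promoter was matched for 69 members. The NRF-1 letters were found in 5.8% of them (Atp5g2, Atp5k, Cox6a1 and Ndufa11) and in 0.9% of 27025 genes with a promoter. The core was found in 18.8% of the members and 4.2% of all genes, and GABP and ETS in 17.4% and 7.8%. The hypoxia response letters were in 23.2% of the members and 18.5% of all genes, and the STAT6 letters in 4.3% (Cox6b1, Ndufa9 and Ndufc1) and 6.8%. In the sequences above, Uqcrh holds GABP and ETS letters at base 241, Atp5g2 holds NRF-1 at 209 and the hypoxia response letters at 11, and Cox6a1 holds NRF-1 at 89, the core also at 134, and GABP and ETS at 235, counted from the 5′ end. None of the 5 sets of letters is in the Cox7a1 window. These matches describe the letters only.

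Cox6a2 had the largest rise with IL-4 of the members in both genotypes. It encodes the heart and skeletal muscle form of subunit 6A, a small subunit of cytochrome c oxidase (complex IV), and its single probe lies at chr7:135349160-135349219 (mm9). The signal was 6.57, 6.33 and 6.15 in knockout IL-4 samples, against 4.17, 4.15 and 4.37 in knockout controls. In wild-type cells it was 7.60, 7.59 and 7.49 with IL-4, against 4.59, 4.76 and 4.75 in controls. The groups did not overlap in either genotype.

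IL-4 raised Cox6a2 4.34-fold in knockout cells (log2 change 2.12 ± 0.10 SE, adjusted p = 8.49e-07) and 7.28-fold in wild-type cells (2.86 ± 0.10, adjusted p = 5.59e-09). The knockout response was smaller by a tested difference of -0.75 ± 0.15 (adjusted p = 0.00238), the only member whose difference passed as lower at this scaling, where quantile normalization gave 3. The difference remained past the threshold with quantile normalization (-0.95). With slide as a block it was -0.89, a fit in which the knockout response rests on knockout control 3 as its only control. Between IL-4 groups, Cox6a2 was lower in knockout cells by a log2 difference of -1.21 ± 0.10 (adjusted p = 4.52e-06). Between controls the difference was -0.47 ± 0.10 (adjusted p = 0.0261), and this call was lost without wild-type control replicate 2 or 3 or knockout control replicate 2 (adjusted p = 0.0887, 0.0851 and 0.0918).

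The widely expressed partner, Cox6a1, moved little by comparison. Its probe (chr5:115795726-115795785, mm9) shares a run of at most 4 of 60 bases with that of Cox6a2. It read 9.01, 8.97 and 8.90 in knockout IL-4 samples, against 8.74, 8.73 and 8.64 in knockout controls. In wild-type cells it read 9.01, 9.05 and 9.05 with IL-4, against 8.84, 8.87 and 8.79 in controls. Groups did not overlap, and Cox6a1 rose by 0.26 ± 0.05 in knockout cells (adjusted p = 0.00197) and 0.20 ± 0.05 in wild-type cells (adjusted p = 0.00443), with a difference of 0.05 ± 0.07 (adjusted p = 0.554).

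Other muscle genes did not accompany Cox6a2. Of 7 markers of striated muscle, 5 were well above background on no array, among them creatine kinase (Ckm), skeletal actin (Acta1) and myoglobin (Mb). The log2 of the summed signals of the list was 2.45 to 2.67 in knockout IL-4 samples and 2.64 to 3.08 in knockout controls, and 0.10 to 0.26 in wild-type IL-4 samples against 2.65 to 2.80 in wild-type controls. Most of that sum came from Myh7, a myosin heavy chain, which averaged -0.11 ± 0.09 (SD) in wild-type IL-4 samples and 2.65 ± 0.08 in wild-type controls. The sum was thus lower where Cox6a2 was highest.

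Cox7a1, the heart and muscle form of subunit 7A, differed mainly between genotypes and varied most between arrays. It read -1.47, -0.96 and 1.27 in knockout IL-4 samples, against 0.48, 1.96 and 2.46 in knockout controls. In wild-type cells it read -2.52, -2.75 and -2.46 with IL-4, against -0.94, -1.29 and -1.57 in controls. The knockout IL-4 and control groups overlapped, because IL-4 array 3 lay above control 1; both knockout groups lay above their wild-type counterparts.

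In knockout controls Cox7a1 was 7.48-fold higher than in wild-type controls (log2 difference 2.90 ± 0.66, adjusted p = 0.027). Between IL-4 groups it was higher in knockout cells by 2.19 ± 0.66 (adjusted p = 0.0185; 2.10, adjusted p = 0.0502 without wild-type IL-4 replicate 2). With slide as a block these calls were lost (2.49, adjusted p = 0.0999, and 0.95, adjusted p = 0.568). The IL-4 response was -2.02 ± 0.66 in knockout cells (adjusted p = 0.0322) and -1.31 ± 0.66 in wild-type cells (adjusted p = 0.117). The knockout call was lost without knockout IL-4 replicate 1 or 2 or knockout control replicate 2 or 3 (adjusted p = 0.122, 0.106, 0.0924 and 0.112), and the control difference without any of 5 arrays, with adjusted p of 0.0596 to 0.0999.

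Ndufv3, an accessory subunit of complex I, followed the same arrays at a smaller scale. It read 6.77, 6.75 and 7.38 in knockout IL-4 samples, against 7.24, 7.64 and 7.78 in knockout controls. Wild-type arrays lay between 6.82 and 6.94. Ndufv3 was higher by 0.65 ± 0.17 in knockout controls than in wild-type controls (adjusted p = 0.0389; 0.54, adjusted p = 0.136 with slide as a block, and lost without any of 8 arrays in turn, at adjusted p of 0.0563 to 0.136) and fell by 0.58 ± 0.17 with IL-4 in knockout cells (adjusted p = 0.0198).

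The hypoxia and glycolysis list, 26 genes of sugar uptake, glycolysis and the response to low oxygen, set the same knockout arrays apart, with IL-4 array 3 and the controls high. For knockout IL-4 arrays 1, 2 and 3 the median deviation of its genes from their means over arrays stood at -0.39, -0.18 and 0.62, against 0.44, 0.88 and 1.07 for the knockout controls. Wild-type arrays lay between -0.45 and -0.26. Between controls, 22 of its 26 genes were higher in knockout cells, and with IL-4 in knockout cells 13 fell and 1 rose. Pgk1, a glycolytic kinase, was 2.33-fold higher in knockout controls (adjusted p = 0.0109). The part of this state in the values of Cox7a1, Ndufv3 and the other members was not tested.

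**Figure D3:**
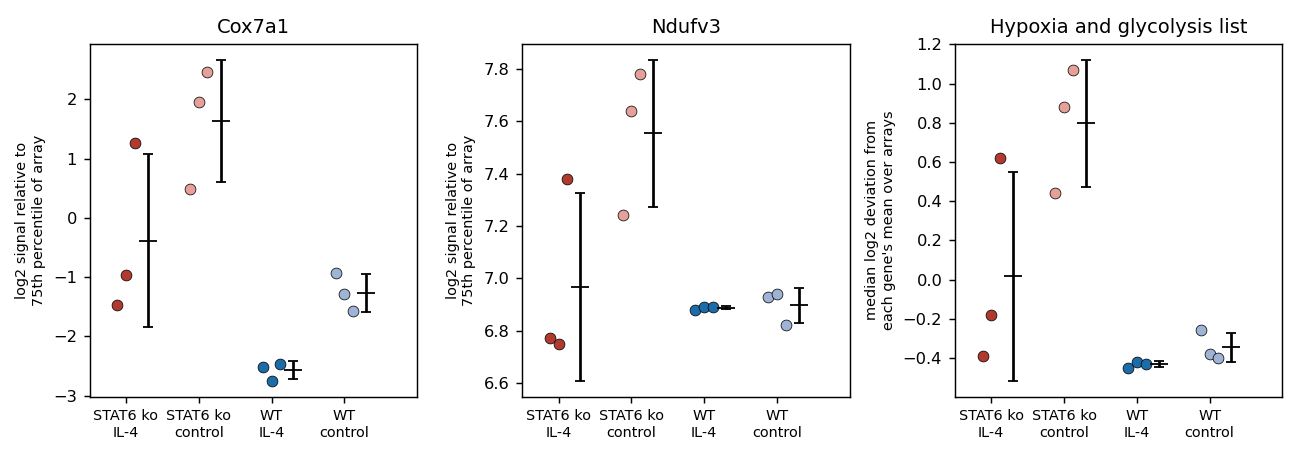
Cox7a1 and Ndufv3 signals (log2, relative to the 75th percentile of the array) and the median log2 deviation of 26 hypoxia and glycolysis genes on each array (points), with mean and SD per group. In all 3 panels knockout IL-4 array 3 and the knockout controls lie above knockout IL-4 arrays 1 and 2 and all wild-type arrays.

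The remaining isoform families of complex IV showed smaller differences. Cox7a2, the widely expressed partner of Cox7a1, read 5.42, 5.48 and 5.28 in knockout IL-4 samples, against 5.31, 5.23 and 5.21 in knockout controls, and 5.24, 5.30 and 5.37 in wild-type IL-4 samples against 5.28, 5.35 and 5.23 in wild-type controls. It passed in no comparison, and the groups overlapped. Cox6b2, a form best known from testis, read 2.08, 1.85 and 1.68 in knockout IL-4 samples, against 1.60, 1.46 and 1.39 in knockout controls, and 1.70, 1.63 and 1.61 in wild-type IL-4 samples against 1.85, 1.87 and 1.92 in wild-type controls. It rose by 0.39 ± 0.09 in knockout cells (adjusted p = 0.00758), while its wild-type change was -0.23 ± 0.09 (adjusted p = 0.0527), and the difference of 0.62 ± 0.13 passed (adjusted p = 0.00362). Its partner Cox6b1 read 3.85, 3.78 and 3.68 in knockout IL-4 samples, against 3.69, 3.78 and 3.61 in knockout controls, and 3.60, 3.62 and 3.56 in wild-type IL-4 samples against 3.64, 3.73 and 3.77 in wild-type controls. Cox6b1 changed by 0.08 ± 0.06 with IL-4 in knockout cells and by -0.12 ± 0.06 in wild type (adjusted p = 0.358 and 0.117).

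Cox4i1 and Cox8a are the widely expressed forms of subunits 4 and 8. Cox4i1 read 8.36, 8.23 and 8.30 in knockout IL-4 samples, against 8.34, 8.31 and 8.31 in knockout controls, and 8.13, 8.10 and 8.01 in wild-type IL-4 samples against 8.29, 8.32 and 8.29 in wild-type controls. It fell by 0.21 ± 0.05 in wild-type cells (adjusted p = 0.00311), and its knockout change was -0.03 ± 0.05. The wild-type call of Cox4i1 was lost under quantile normalization (-0.08, adjusted p = 0.322), median scaling (-0.20, adjusted p = 0.0936) and the authors' gene-level values (-0.03, adjusted p = 0.594). Cox8a read 8.40, 8.35 and 8.32 in knockout IL-4 samples, against 8.11, 8.04 and 8.20 in knockout controls, and 8.01, 8.10 and 8.02 in wild-type IL-4 samples against 8.17, 8.23 and 8.15 in wild-type controls. Cox8a rose by 0.24 ± 0.05 in knockout cells and fell by 0.14 ± 0.05 in wild-type cells (adjusted p = 0.00504 and 0.0462), without overlap of the groups. The wild-type call of Cox8a was lost under quantile normalization (-0.04, adjusted p = 0.503) and median scaling (-0.12, adjusted p = 0.355), and the knockout call with slide as a block (0.15, adjusted p = 0.106). Of the untested forms, Cox4i2 lay between -4.45 and -1.97 over the 12 arrays, Cox8b between -6.12 and -5.25, Cox8c between -5.89 and -3.85 and Cox7b2 between -5.94 and -5.42.

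Cox7a2l, the supercomplex factor, fell in wild-type cells, and its responses differed between the genotypes. It read 8.26, 8.24 and 8.25 in knockout IL-4 samples, against 8.20, 8.14 and 8.27 in knockout controls, which overlapped. In wild-type cells it read 7.76, 7.80 and 7.79 with IL-4, against 8.25, 8.25 and 8.19 in controls, which did not overlap. The change was 0.05 ± 0.04 in knockout cells (adjusted p = 0.414) and -0.45 ± 0.04 in wild-type cells (adjusted p = 1.06e-05), and the difference of 0.50 ± 0.06 passed (adjusted p = 0.000134). All 3 of its probes fell in wild-type cells, by 0.45, 0.51 and 0.40.

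**Figure D4:**
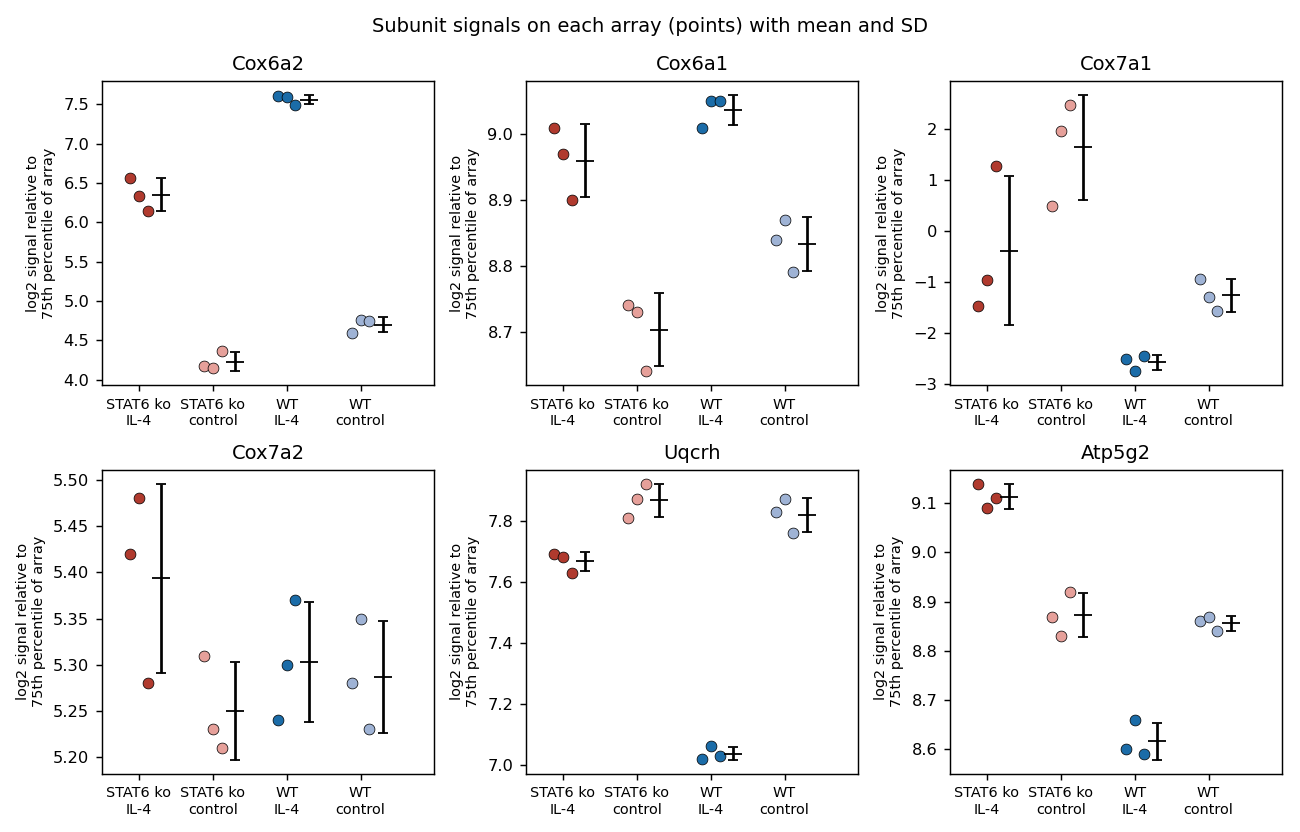
Log2 signal relative to the 75th percentile of the array for 6 members, by group, with each array (points) and the mean and SD (bars); the vertical axes differ between panels and do not start at 0. Cox6a2 is higher with IL-4 in both genotypes, Uqcrh is lowest in wild-type IL-4 samples (7.02 to 7.06), and Atp5g2 is highest in knockout IL-4 samples (9.09 to 9.14); the wild-type fall of Atp5g2 is not called under quantile normalization.

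Complex I, the entry point for NADH, had 36 tested members. With IL-4, 15 rose and 1 fell in knockout cells, and 4 rose and 9 fell in wild-type cells. In knockout cells that was 41.7% and 2.78% of the members of complex I, beside 27.5% and 14.7% of all genes tested. In wild-type cells it was 11.1% and 25%, beside 26.4% and 30.8% of all genes. Among the 7 core subunits, which carry the flavin and iron-sulphur clusters, 4 rose in knockout cells (Ndufs7, Ndufs8, Ndufv1 and Ndufv2), while 2 fell in wild-type cells. Quantile normalization lost the knockout calls of Ndufs7 (0.20, adjusted p = 0.06) and Ndufv2 (0.08, adjusted p = 0.118).

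Ndufv1, which holds the flavin, read 6.37, 6.29 and 6.16 in knockout IL-4 samples, against 6.04, 5.87 and 5.80 in knockout controls. It rose there by 0.37 ± 0.07 (adjusted p = 0.00252), without overlap, and its wild-type change of 0.16 ± 0.07 did not pass (adjusted p = 0.086).

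Of the 28 accessory subunits of complex I, which surround the core, 11 rose and 1 fell in knockout cells, and 4 rose and 6 fell in wild-type cells (14.3% and 21.4%, each below the share of all genes). Ndufa10 read 4.90, 4.82 and 4.75 in knockout IL-4 samples, against 4.78, 4.74 and 4.69 in knockout controls, and 4.41, 4.42 and 4.31 in wild-type IL-4 samples against 4.66, 4.87 and 4.83 in wild-type controls. It fell by 0.41 ± 0.07 in wild-type cells (adjusted p = 0.000376), and its responses differed by 0.50 ± 0.09 (adjusted p = 0.0018). Ndufb5 fell by 0.26 ± 0.05 in wild-type cells and rose by 0.14 ± 0.05 in knockout cells (adjusted p = 0.000624 and 0.0294), but the knockout value was 0.03 under quantile normalization (adjusted p = 0.652). Its other usable probe, which is dimmer, fell by 0.82 in wild-type cells (adjusted p = 2.12e-06) and changed by -0.02 in knockout cells (adjusted p = 0.812). Ndufb11 rose in both, by 0.21 ± 0.04 in knockout and 0.30 ± 0.04 in wild-type cells (adjusted p = 0.00315 and 0.000163), but the knockout rise was 0.07 under quantile normalization (adjusted p = 0.168).

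Probes of a gene did not always give the same picture. In 27 tested members with several usable probes, 1 had probes called in opposite directions in the wild-type response: the probe that stands for Ndufa3 fell by 0.22 while its other probe rose by 0.49. Between IL-4 groups the same held for Ndufb11, whose knockout minus wild-type difference was -0.18 for the brighter probe and 0.27 for the other.

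Ndufa4 read 5.17, 5.14 and 4.91 in knockout IL-4 samples, against 5.10, 4.86 and 4.66 in knockout controls, and 4.88, 4.91 and 5.04 in wild-type IL-4 samples against 5.24, 5.34 and 5.28 in wild-type controls. It fell by 0.34 ± 0.11 in wild-type cells (adjusted p = 0.0198; -0.32, adjusted p = 0.0872 under median scaling), and its knockout change was 0.20 ± 0.11 (adjusted p = 0.16). Ndufa4l2, its relative induced by low oxygen in several cell types, lies 0.144 Mb from Stat6 on chromosome 10. It was well above background on 1 of 3 knockout IL-4 arrays, 2 of 3 wild-type IL-4 arrays and no control array, and was not tested.

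Complex II, succinate dehydrogenase, is the one complex shared with the citric acid cycle. Sdha, the flavoprotein, read 4.96, 4.98 and 4.82 in knockout IL-4 samples, against 4.95, 4.76 and 4.71 in knockout controls, and 4.67, 4.74 and 4.75 in wild-type IL-4 samples against 4.92, 5.05 and 5.02 in wild-type controls. Sdhd, a membrane anchor, read 5.51, 5.46 and 5.32 in knockout IL-4 samples, against 5.50, 5.45 and 5.30 in knockout controls, and 5.17, 5.22 and 5.14 in wild-type IL-4 samples against 5.43, 5.59 and 5.49 in wild-type controls. Both fell in wild-type cells without overlap, Sdha by 0.28 ± 0.07 and Sdhd by 0.33 ± 0.07 (adjusted p = 0.00763 and 0.00243). The call of Sdha was lost under median scaling (-0.26, adjusted p = 0.0866).

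The other two subunits of complex II did not fall. Sdhb, the iron-sulphur protein, read 6.79, 6.82 and 6.59 in knockout IL-4 samples, against 6.59, 6.36 and 6.30 in knockout controls, and 6.62, 6.67 and 6.71 in wild-type IL-4 samples against 6.60, 6.66 and 6.62 in wild-type controls. It rose by 0.31 ± 0.08 in knockout cells (adjusted p = 0.0122), a call that quantile normalization lost (0.20, adjusted p = 0.0711). Sdhc, the other anchor, read 4.81, 4.63 and 4.57 in knockout IL-4 samples, against 4.60, 4.55 and 4.46 in knockout controls, and 4.61, 4.65 and 4.52 in wild-type IL-4 samples against 4.59, 4.70 and 4.63 in wild-type controls. Sdhc passed in no comparison, and its groups overlapped.

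Complex III held the member with the largest fall past the test in wild-type cells. Uqcrh, the hinge protein that helps cytochrome c1 receive its partner, read 7.69, 7.68 and 7.63 in knockout IL-4 samples, against 7.81, 7.87 and 7.92 in knockout controls. In wild-type cells it read 7.02, 7.06 and 7.03 with IL-4, against 7.83, 7.87 and 7.76 in controls. The groups did not overlap in either genotype.

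Uqcrh fell by 0.20 ± 0.05 in knockout cells (adjusted p = 0.00674) and by 0.78 ± 0.05 in wild-type cells (adjusted p = 2.1e-07), a difference of 0.59 ± 0.07 (adjusted p = 5.93e-05). The knockout call was lost under median scaling (-0.04, adjusted p = 0.71). The other probe of Uqcrh, which overlaps the first on the genome, changed by -0.11 in knockout and -0.87 in wild-type cells. Uqcrq, another small subunit, rose in both genotypes, by 0.35 ± 0.07 in knockout and 0.32 ± 0.07 in wild-type cells (adjusted p = 0.00234 and 0.00245). Uqcrc2, a core protein, read 6.37, 6.28 and 6.28 in knockout IL-4 samples, against 6.01, 5.98 and 5.95 in knockout controls, and rose by 0.33 ± 0.05 (adjusted p = 0.000556). Its wild-type change was 0.10 ± 0.05 (adjusted p = 0.102). Uqcrfs1, the Rieske iron-sulphur protein, changed by 0.10 ± 0.04 and 0.03 ± 0.04 in knockout and wild-type cells and did not pass in either.

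In complex V, 8 of 18 members rose with IL-4 in knockout cells. In wild-type cells 2 rose (Atp5g1 and Atp5s) and 9 fell. The 44.4% that rose in knockout cells stood beside 27.5% of all genes tested, and the 50% that fell in wild-type cells beside 30.8%. Of the 5 genes of the catalytic head and central stalk, 3 rose in knockout cells (Atp5b, Atp5c1 and Atp5d) and 3 fell in wild-type cells (Atp5a1, Atp5c1 and Atp5e). Of the 7 genes of the peripheral stalk and membrane part, 1 rose in knockout cells (Atp5f1) and 3 fell in wild-type cells (Atp5j2, Atp5k and Atp5l). The knockout calls of Atp5d and Atp5f1 were lost under quantile normalization (0.03 and 0.09, adjusted p = 0.647 and 0.215), that of Atp5d also with slide as a block (0.11, adjusted p = 0.293), and the wild-type call of Atp5a1 under median scaling (-0.20, adjusted p = 0.187).

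The c ring of ATP synthase is built from a protein that 3 genes encode, and these genes responded differently. Atp5g1 read 7.43, 7.37 and 7.27 in knockout IL-4 samples, against 6.87, 6.66 and 6.64 in knockout controls, and 7.38, 7.40 and 7.36 in wild-type IL-4 samples against 6.89, 7.04 and 6.98 in wild-type controls. Atp5g2 read 9.14, 9.09 and 9.11 in knockout IL-4 samples, against 8.87, 8.83 and 8.92 in knockout controls, and 8.60, 8.66 and 8.59 in wild-type IL-4 samples against 8.86, 8.87 and 8.84 in wild-type controls. Both separated the groups without overlap in both genotypes.

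Atp5g1 rose by 0.64 ± 0.07 in knockout cells (adjusted p = 7.94e-05) and 0.41 ± 0.07 in wild-type cells (adjusted p = 0.000601), but its dimmer probe, at another position, changed by -0.02 and 0.24 and did not pass. Atp5g2 rose by 0.24 ± 0.04 in knockout cells (adjusted p = 0.00126) and fell by 0.24 ± 0.04 in wild-type cells (adjusted p = 0.000708), with a difference of 0.48 ± 0.06 (adjusted p = 0.000121). All 3 Atp5g2 probes gave these directions, but the wild-type call was lost under quantile normalization (-0.07, adjusted p = 0.178) and median scaling (-0.22, adjusted p = 0.0659). Atp5g3 read 6.48, 6.58 and 6.35 in knockout IL-4 samples, against 6.57, 6.48 and 6.30 in knockout controls, and 6.35, 6.46 and 6.39 in wild-type IL-4 samples against 6.62, 6.69 and 6.59 in wild-type controls. It fell by 0.23 ± 0.08 in wild-type cells (adjusted p = 0.0282; -0.21, adjusted p = 0.163 under median scaling), and its knockout change was 0.02 ± 0.08.

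Atp5e and Atp5c1 of the head and central stalk also differed between the responses. Atp5e, the epsilon subunit, read 7.90, 7.77 and 7.75 in knockout IL-4 samples, against 7.82, 7.71 and 7.71 in knockout controls, and 7.47, 7.49 and 7.33 in wild-type IL-4 samples against 7.83, 7.90 and 7.85 in wild-type controls. It fell by 0.43 ± 0.06 in wild-type cells (adjusted p = 0.000141), with a difference of 0.49 ± 0.09 (adjusted p = 0.00111). Atp5c1, the gamma subunit, read 7.13, 7.14 and 7.03 in knockout IL-4 samples, against 6.97, 6.92 and 6.90 in knockout controls, and 6.75, 6.77 and 6.79 in wild-type IL-4 samples against 6.97, 7.02 and 7.00 in wild-type controls. It rose by 0.17 ± 0.04 in knockout cells and fell by 0.22 ± 0.04 in wild-type cells (adjusted p = 0.0118 and 0.00149), with no overlap, but the knockout call was lost under quantile normalization (0.11, adjusted p = 0.0778) and the wild-type call under median scaling (-0.21, adjusted p = 0.0969).

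Atp5b, the catalytic beta subunit, lies 0.43 Mb from Stat6 on chromosome 10, so that linked sequence and the Stat6 genotype cannot be told apart in its genotype comparison. It read 8.08, 8.01 and 7.99 in knockout IL-4 samples, against 7.83, 7.75 and 7.69 in knockout controls, and 7.87, 8.04 and 7.97 in wild-type IL-4 samples against 7.84, 7.89 and 7.80 in wild-type controls. It rose by 0.27 ± 0.06 in knockout cells (adjusted p = 0.00419). The knockout minus wild-type difference was -0.08 ± 0.06 without IL-4 and 0.07 ± 0.06 with IL-4 (adjusted p = 0.327 and 0.371).

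Knockout and wild-type cells were then compared directly. Without IL-4, 2 members were higher in knockout cells (Cox7a1 and Ndufv3) and 6 lower (Cox6a2, Cox6b2, Ndufa3, Ndufa4, Ndufa12 and Uqcrfs1), where 4.73% of all genes tested were higher and 6.96% lower. The median of the members was -0.11, beside -0.04 for all genes. Of the members 71 of 80 values were negative, beside 9644 of all 16497 genes tested, and 66 members lay below the median of all genes. With slide as a block, which rests on knockout controls 1 and 2, 1 member passed, as lower. Median scaling gave 2 higher and 38 lower, where 2.82% of all genes tested were higher and 30.9% lower. Left out singly, wild-type control 2, wild-type control 3 and knockout control 2 each brought the limma calls to 0 (2 higher and 9, 15 and 10 lower at an unadjusted p under 0.05). In these fits the calls of all genes also dropped, to 1.06%, 0.8% and 0.964% higher and 1.53%, 1.53% and 1.52% lower. Leaving out wild-type control 1 or knockout control 3 left 1 member lower, beside 2.34% and 1.62% of all genes. Leaving out knockout control 1 gave 16 members lower, beside 14.3% of all genes.

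With IL-4, 28 members were higher in knockout than in wild-type cells and 2 lower (Cox6a2 and Ndufb11), where 29.8% of all genes tested were higher and 21.3% lower. The median was 0.09, beside 0.06 for all genes. Uqcrh had the smallest adjusted p of those higher (0.63 ± 0.05, adjusted p = 1.39e-06), followed by Atp5g2 (0.50 ± 0.04, adjusted p = 4.09e-06) and Cox7a2l (0.47 ± 0.04, adjusted p = 9.53e-06). Quantile normalization gave 18 higher and 10 lower, and slide as a block, which compares the groups through the knockout controls, 12 and 1. These comparisons share arrays with those of the IL-4 responses. Under quantile normalization 27.9% of all genes tested were higher and 23.1% lower between IL-4 groups.

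The members were also summarised on each array. In knockout IL-4 arrays 1, 2 and 3 the median deviation of the members was 0.13, 0.09 and -0.03, against 0.01, -0.09 and -0.13 in the knockout controls. In wild-type IL-4 arrays it was -0.05, -0.03 and -0.04, against 0.01, 0.07 and 0.02 in wild-type controls. Knockout IL-4 array 3 lay below knockout control 1, so the knockout groups overlapped, while the wild-type groups did not. The medians of all genes tested were also lower in wild-type IL-4 arrays (-0.03, -0.01 and -0.03) than in wild-type controls (0.01, 0.03 and 0). Members minus all genes gave -0.02, -0.02 and 0 with IL-4 against 0, 0.05 and 0.02 in wild-type controls, so these groups met at 0. In knockout cells members minus all genes gave 0.07, 0.06 and -0.05 with IL-4 against 0.03, -0.05 and -0.09. Knockout IL-4 array 3 and knockout controls 2 and 3, which had the lowest member medians of the knockout arrays, had the highest medians of the hypoxia and glycolysis list. Whether the state behind that list has a part in the members' counts was not tested.

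**Figure D5:**
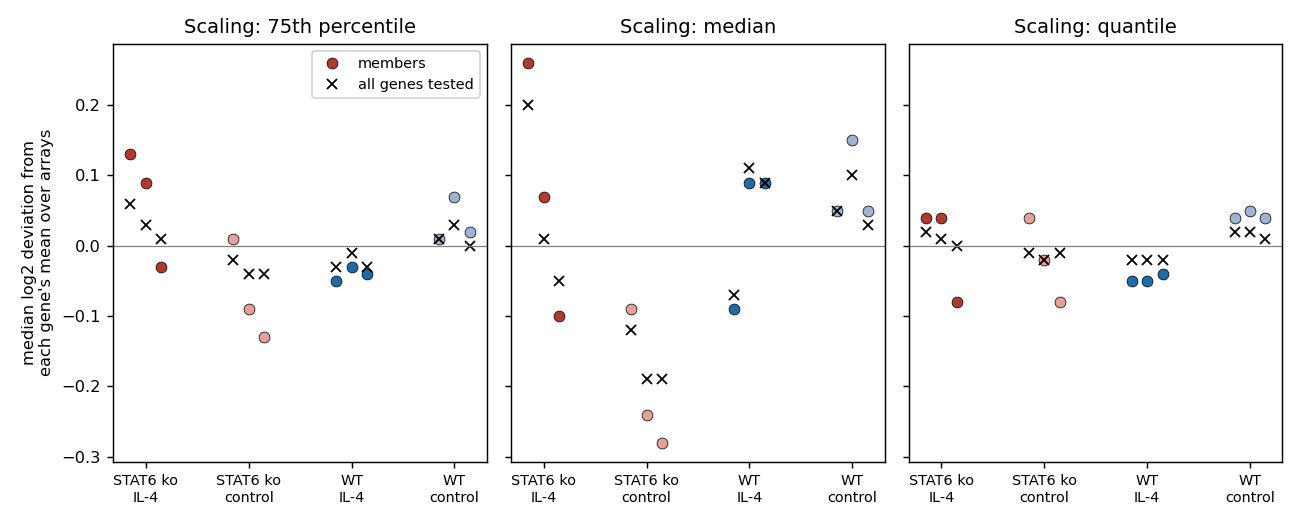
Median log2 deviation of the 80 tested members (circles) and of all 16497 genes tested (crosses) from each gene's mean over the arrays, for each array in 4 groups, under 3 scalings. In wild-type cells both circles and crosses of the IL-4 arrays lie below those of the controls at the 75th percentile and quantile scalings. They overlap at the median scaling, where array medians of all genes range from -0.19 to 0.20. The circle of knockout IL-4 array 3 lies below that of knockout control 1 in all 3 panels.

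Other genes of the mitochondrion were counted from lists. Their counts are to be read beside all genes tested, of which 27.5% rose and 14.7% fell in knockout cells (median 0.05) and 26.4% rose and 30.8% fell in wild-type cells (median -0.04). Of 38 assembly factors, which build the complexes, 21 rose with IL-4 in knockout cells (55.3%), with a median change of 0.24. In wild-type cells 6 rose and 14 fell (15.8% and 36.8%), with a median of -0.11. Sco1, a copper chaperone of complex IV, rose by 1.60 ± 0.17 in wild-type cells (adjusted p = 2.28e-05) and Cox20, another complex IV factor, fell by 0.81 ± 0.06 (adjusted p = 9.61e-07). Of 77 genes of the mitochondrial ribosome, 34 rose in knockout cells (44.2%), with a median of 0.20; in wild type 11 rose and 20 fell (14.3% and 26%), with a median of -0.07. Of 19 genes of the citric acid cycle and pyruvate entry, 15 rose and 1 fell in knockout cells (78.9% and 5.26%), and 4 rose and 1 fell in wild-type cells (21.1% and 5.26%). Among them Dlst, a subunit of the 2-oxoglutarate dehydrogenase complex, rose by 1.32 ± 0.06 in wild-type cells (adjusted p = 5.11e-08).

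Of 10 further nuclear subunits and electron carriers, 7 rose in knockout cells, and 1 rose and 1 fell in wild-type cells; Cyc1, cytochrome c1 of complex III, rose by 0.67 ± 0.11 in knockout cells (adjusted p = 0.00105). The 13 subunits encoded in mitochondrial DNA had a median change of -0.09 in knockout cells, where 1 fell (ND5), and -0.03 in wild-type cells, where 2 rose (ND2 and ND6). Their difference between the responses ranged from -0.44 to 0.43, with a median of 0.04. Of 17 regulators of mitochondrial biogenesis, 7 rose in knockout cells (41.2%), and 4 rose and 5 fell in wild-type cells (23.5% and 29.4%, near the shares of all genes). Ppargc1a, a coactivator of NRF-1 and of nuclear receptors, fell by 1.61 ± 0.17 in wild-type cells (adjusted p = 1.85e-05), and its responses differed by 1.97 ± 0.24 (adjusted p = 0.000109). Myc fell by 0.58 ± 0.05 in wild-type cells and rose by 0.27 ± 0.05 in knockout cells (adjusted p = 4.58e-06 and 0.00224).

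Defining markers of the labelled cell type were present. All 7 B cell markers were well above background on all 12 arrays, and the log2 of their summed signals was 9.86 to 9.97 in knockout IL-4 samples, 9.75 to 9.85 in knockout controls, 10.13 to 10.19 in wild-type IL-4 samples and 9.94 to 9.98 in wild-type controls. The sums hide opposite changes: with IL-4, 3 of the 7 rose and 1 fell in knockout cells, and 2 rose and 4 fell in wild-type cells. Cd79a, Pax5, Cd22 and Blk changed by -0.15, 0.22, -0.23 and -0.28 in knockout cells and by -0.91, -0.78, -0.57 and -1.26 in wild-type cells. For 6 plasma cell markers, all above background on every array, the sums were 6.80 to 6.84, 7.70 to 8.03, 7.87 to 7.90 and 7.87 to 7.95 in the same order of groups. Of these, 1 rose and 4 fell with IL-4 in knockout cells, and 3 rose and 3 fell in wild-type cells. Igj, Prdm1 and Derl3 fell by 3.44, 1.69 and 1.66 in knockout cells and by 5.82, 2.81 and 3.07 in wild-type cells. For 7 T cell markers, of which 5 were above background on all arrays, the sums were 5.01 to 5.08, 5.15 to 5.35, 7.11 to 7.19 and 5.05 to 5.14 in the same order of groups, and the wild-type rise was mainly that of Thy1 (log2 change 10.9). For 6 macrophage markers they were 5.89 to 5.95, 5.73 to 5.86, 4.41 to 4.45 and 5.83 to 5.89. The part of other cell types in the members' values was not tested.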

How the data were processed

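Fluorescence intensities of 12 arrays were read with Agilent Feature Extraction 10.7.3.1, per the file headers, as background-subtracted and detrended signals deposited by the authors without scaling between arrays. The flags for spots above background are, per the file headers, those of the same software. The authors' deposited gene-level table holds log2 values that were background subtracted and quantile normalized. From the intensities, log2 signals minus the 75th percentile of each array were computed over 59305 spots, with outlier spots left out and spots of a probe averaged (55681 probes). A probe was kept if every array of some group had it well above background (22940), and the brightest kept probe stood for its gene (16497 genes). The 4 groups were fitted together with limma 3.58.1 in R 4.3.3, with 5 contrasts and Benjamini-Hochberg adjustment over all genes, after the scripts were tested on simulated data. There, with 200 genes changed in the wild-type response, 18% of log2 changes of 0.25 and 62% of those of 0.5 were called. Small changes can thus go uncalled. Alternatives were quantile normalization, median scaling, normexp background correction (offset 50), other probe filters and gene summaries, the authors' values, only the groups compared, an intensity trend, slide as a block, the replicate number as a block, and leaving out each array. Probe positions are those of the array files (mm9). The values of 1 member, which enters all counts, are not reported here. The members and gene lists were chosen with earlier results of these data known. Members described array by array were those changed at least 2-fold, isoform families, complex II, members within 10 Mb of Stat6 and those with the smallest adjusted p per comparison and complex.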

Additional observations from a re-analysis of the deposited data

Results flagged for a closer look

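For 31 members the IL-4 response differed between STAT6 knockout and wild-type cells by the test of the difference itself (limma, adjusted p under 0.05 over 16497 genes). Values of 30 of them are given as log2 responses in knockout cells minus those in wild-type cells. In complex I the differences were 0.50 for Ndufa10, 0.31 for Ndufa2, 0.20 for Ndufa3, 0.54 for Ndufa4, 0.35 for Ndufa5, 0.30 for Ndufb10, 0.41 for Ndufb5, 0.38 for Ndufb8 and 0.24 for Ndufv2. In complex II they were 0.39 for Sdha and 0.34 for Sdhd, and in complex III 0.38 for Uqcr10, 0.23 for Uqcrc2 and 0.59 for Uqcrh. In complex IV they were 0.19 for Cox4i1, 0.62 for Cox6b2, 0.22 for Cox6c, 0.50 for Cox7a2l, 0.36 for Cox7b, 0.38 for Cox8a and -0.75 for Cox6a2. Among the names beginning with Atp5 they were 0.36 for Atp5a1, 0.39 for Atp5c1, 0.32 for Atp5c1-ps, 0.49 for Atp5e, 0.26 for Atp5f1, 0.48 for Atp5g2, 0.35 for Atp5j2, 0.34 for Atp5l and 0.26 for Atp5sl.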

How the results depend on the processing

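The cause of the shifts below was not tested. Counts and medians of all genes moved with the setting too. Under quantile normalization the knockout response had a median of 0.02 for all genes, the same as for the members. Quantile normalization gave 14 members higher and 10 lower (median 0.02) for IL-4 in knockout cells, 3 lower (median 0.11) for the difference of the responses, and 18 higher and 10 lower for knockout against wild type with IL-4. Median scaling gave 5 higher and 12 lower for IL-4 in wild type, medians of 0.28 for IL-4 in knockout cells and 0.33 for the difference, 38 lower (median -0.30) for knockout against wild type without IL-4, and 8 higher and 1 lower with IL-4. Without the filter on dim probes, which tests more genes, 18 members rose and 1 fell in knockout cells, 17 were higher in the difference, 15 were higher between IL-4 groups, and between controls limma called 0 higher and 0 lower (3 and 16 at an unadjusted p under 0.05). The authors' gene-level values gave 15 higher and 9 lower (median 0.02) in knockout cells, 2 lower (median 0.10) in the difference, and 18 higher and 12 lower between IL-4 groups. Fitting only the groups compared, with fewer arrays, gave 14 higher and 0 lower in knockout cells by limma (23 and 3 unadjusted) and 1 higher and 2 lower between controls. The intensity trend gave 2 lower in the difference, normexp 4 lower between IL-4 groups, and the mean of all kept probes 1 lower there. Slide as a block gave 2 lower (median 0.26) in the difference, 0 higher and 1 lower between controls by limma (2 and 9 unadjusted), and 12 higher and 1 lower (median 0.19) between IL-4 groups.

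Leaving out each array in turn gave, for IL-4 in knockout cells, 21 to 40 higher, 1 to 3 lower and medians of 0.09 to 0.18. For IL-4 in wild type it gave 6 to 11 higher, 21 to 34 lower and medians of -0.10 to -0.06. The difference of the responses had 21 to 41 higher, 1 to 2 lower and medians of 0.16 to 0.25. Knockout against wild type had 0 to 2 higher, 0 to 16 lower and medians of -0.15 to -0.09 without IL-4, and 19 to 36 higher, 2 to 3 lower and medians of 0.06 to 0.14 with IL-4. With a replicate block, IL-4 gave 25 higher and 3 lower in knockout cells and 8 higher and 27 lower in wild type, with 28 higher and 1 lower for the difference. Same-numbered arrays correlated at r = -0.24 to 0.39 in their deviations, with 2 of 18 pairs over 0.1. In all, 4 of 12 arrays matched their own number best, counting pairs across genotypes. Within wild type, IL-4 and control arrays numbered 1, 2 and 3 correlated at 0.038, 0.071 and 0.031, and different-numbered pairs at -0.05 to 0.015. In knockout cells the same-numbered values were 0.316, -0.017 and 0.392, and different-numbered pairs gave -0.468 to 0.313. These values cannot decide whether same-numbered samples share an origin, which the labels do not give. Of 64 results for single genes, 40 kept their call under every setting run for them other than leaving out an array, and none of the 64 reversed in any of the settings run. These 64 were picked from the same data, as changes of at least 2-fold or the smallest adjusted p per complex and comparison. They therefore do not stand for the members' calls at large.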
